A study of Mus musculus with 6 samples.

Results

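Mitochondrial ribosomal proteins were followed here in haematopoietic stem cell-enriched mouse bone marrow with and without the nuclear receptors Nr4a1 and Nr4a3. The members were all genes with an Affymetrix probe set annotated to a single symbol of the Mrpl or Mrps series, the large and small subunit of the mitochondrial ribosome. They numbered 76 of 18193 genes with a symbol of their own, 47 of the large and 29 of the small subunit, and were covered by 156 of 45037 probe sets. A filter on low signals kept 75 of the 76 genes. Mrpl14 was left out, with signals of 65.4, 39.5 and 16 in DKO and 65.9, 45.0 and 5.3 in WT.

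DKO mice were Nr4a1 Nr4a3 double knockouts on a C57BL/6 and 129SvJ hybrid background, bred from the single knockouts. WT mice were wild type, and the labels give no strain for them. Cells of both groups were Lin-Sca1+ bone marrow cells from mice aged 2 to 3 weeks, purified by FACS, and each of the 3 arrays per group held a pool from 10 to 20 mice. No transgene or Cre is named in the labels. Replicate error here is therefore pool-to-pool error. In bulk RNA, a change in the share of a cell type and a change in RNA per cell cannot be told apart.

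The mitochondrial ribosome translates the few messages that mitochondrial DNA encodes, which are core subunits of the respiratory chain and of ATP synthase. Its RNAs come from mitochondrial DNA, but all of its proteins are made from nuclear genes and imported. Part of them have a counterpart in the bacterial ribosome and the rest were added in the mitochondrial lineage. Haematopoietic stem cells are known for low mitochondrial activity, and their progeny raise mitochondrial output as they leave quiescence.

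Across both subunits the transcripts lay slightly higher in DKO, by amounts that no single gene carried past the threshold. The median log2 difference, DKO minus WT, on the log2(signal + 16) scale was 0.25 over 46 large subunit genes and 0.30 over 29 small subunit genes, against -0.01 over all 11529 genes tested. Of the members, 35 large and 24 small subunit genes had a difference above 0, as did 49.2% of all genes. With limma and Benjamini-Hochberg adjustment over all 27022 probe sets tested, 0 of 75 genes passed an adjusted p of 0.05, where 1.08% of all genes were called higher and 0.633% lower in DKO, 1.71% in either direction. The smallest adjusted p was 0.148 in the large and 0.135 in the small subunit. At an unadjusted p under 0.05, 11 genes were higher and 0 lower, 6 of them in the large and 5 in the small subunit. This is 14.7% of the members, beside 7.61% of all genes called higher and 8.65% called lower by that rule.

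In 19 of the 75 genes every DKO array lay above every WT array, 11 in the large and 8 in the small subunit, and in 1 gene, Mrps5, every DKO array lay below. Among all genes tested, 10.7% lay wholly above and 11.3% wholly below. With all genes split into 4 equal classes from dim to bright, the share wholly above was 7.67%, 8.67%, 10.9% and 15.5%. Of the members in these classes, 1 of 4, 7 of 20, 6 of 30 and 5 of 21 lay wholly above. The median log2 difference of the members in the same classes was 0.02, 0.18, 0.31 and 0.26, beside -0.05, -0.06, -0.01 and 0.04 for all genes. The median standard error of a member's log2 difference was 0.28. For 47 of the 75 genes the 95% interval lay wholly between -1 and 1, so a change as large as that was outside their intervals.

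**Figure D1:**
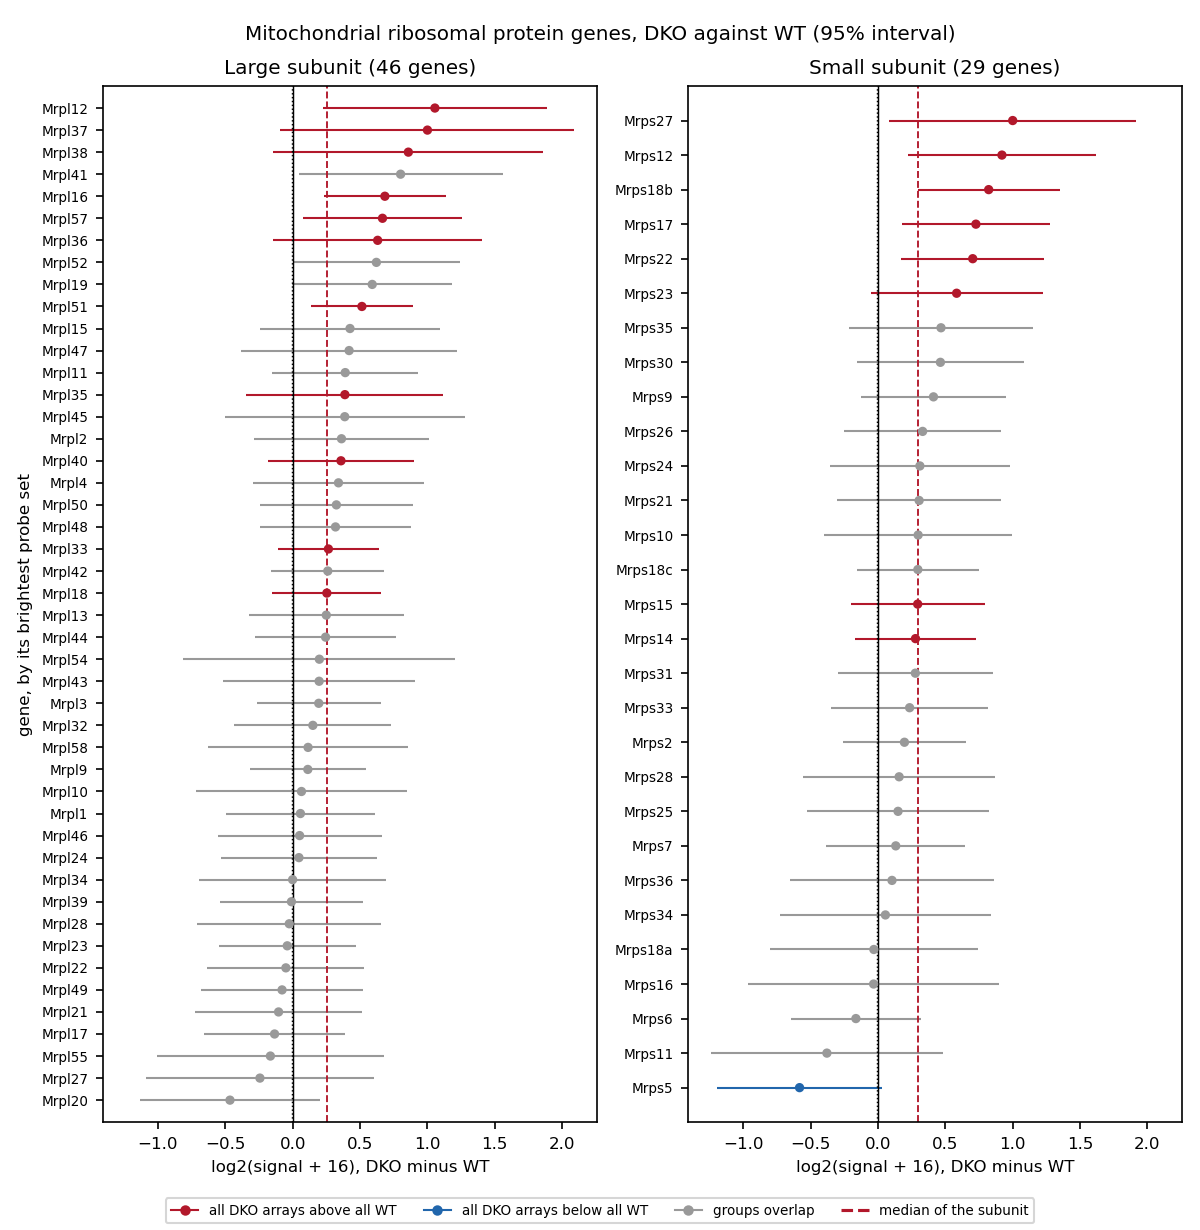
Log2 difference between DKO and WT of each of 46 large and 29 small subunit genes, with its 95% interval from limma; red, all 3 DKO arrays above all 3 WT arrays; blue, all below; grey, overlapping; dashed line, median of the subunit; dotted line, median of all genes tested. Most points lie right of 0, 19 are red, and Mrps5 is the 1 blue point.

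**Figure D2:**
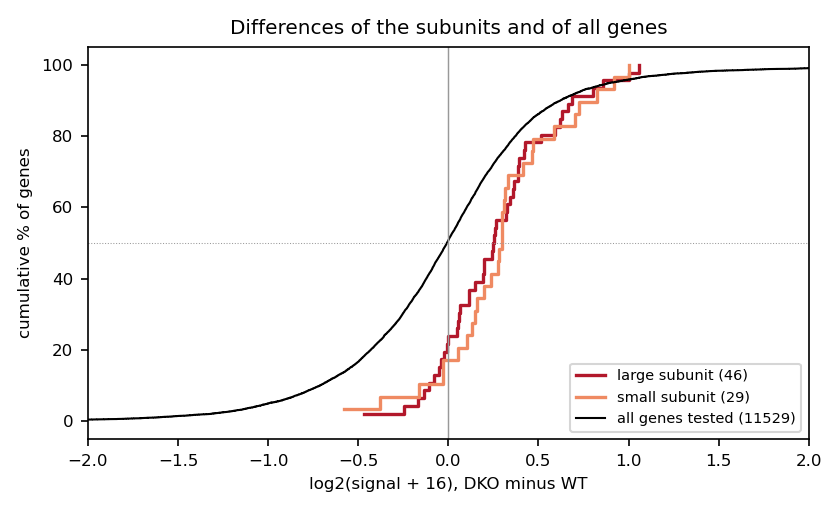
Cumulative share of genes, in percent, against the log2 difference between DKO and WT for both subunits and for all 11529 genes tested, shown between -2 and 2. Both subunit curves lie right of the curve of all genes around their medians of 0.25 and 0.30, and they do not reach the tails of the curve of all genes.

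The mean level of each subunit was compared between pools. Each gene was set relative to its own mean over the 6 arrays and averaged within the subunit, on the log2 scale. The large subunit stood at 0.13, 0.09 and 0.18 in DKO arrays 1 to 3 and at -0.25, -0.21 and 0.07 in WT arrays 1 to 3. The small subunit stood at 0.10, 0.20 and 0.13 in DKO and at -0.19, -0.31 and 0.06 in WT. WT replicate 3 thus lay close below the DKO arrays, while WT replicates 1 and 2 lay apart from them. The lowest signal of a gene was found in WT replicate 1 for 26 genes and in WT replicate 2 for 28, and the highest in DKO replicate 3 for 25. Over all genes tested these arrays held 17.3% and 21.4% of the lowest and 17.7% of the highest signals. Leaving out WT replicate 2 gave a median of 0.16 in the large and 0.17 in the small subunit. Leaving out WT replicate 1 gave 0.19 in the small subunit. The 11 genes higher at an unadjusted p under 0.05 became 6 of 75 without WT replicate 1, where 6.26% of all genes were higher by that rule, and 18 of 75 without WT replicate 3, where 8.56% were.

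**Figure D3:**
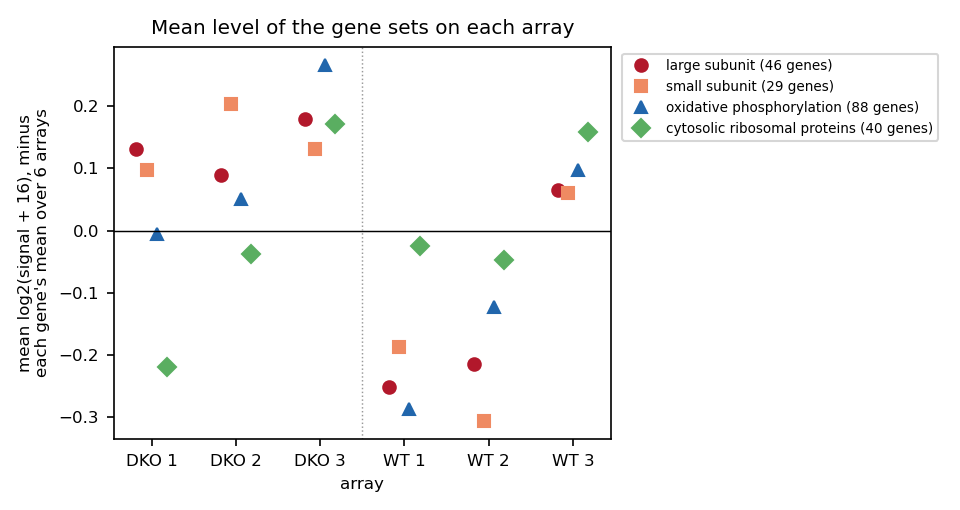
Mean level of 4 gene sets on each array, DKO left and WT right, as log2(signal + 16) minus the mean of that gene on all 6 arrays. Both subunits lie above 0 on all 3 DKO arrays and on WT 3 and below 0 on WT 1 and WT 2.

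The arrays also differed in markers of other cells. T and NK cell markers, 8 of 8 measured, summed to signals of 9330 to 13895 in DKO and 646 to 1415 in WT. Mast cell and basophil markers, 8 of 8 measured, summed to 10306 to 13527 in DKO and 4314 to 4678 in WT, and plasma cell markers, 6 of 6, to 19618 to 47187 in DKO and 3131 to 4282 in WT. Neutrophil markers, 8 of 8, ran from 29501 to 51609 in DKO and from 17308 to 84432 in WT, and all 8 were highest in WT replicate 2. B lineage markers, 7 of 8 measured, ran from 1767 to 2083 in DKO and from 2570 to 10029 in WT, erythroid markers, 5 of 7, from 8598 to 10167 in DKO and from 3447 to 14251 in WT, and monocyte and macrophage markers, 6 of 6, from 10101 to 13607 in DKO and from 7896 to 25223 in WT. The Lin-Sca1+ list, 7 of 8 measured, summed to 19098 to 22503 in DKO and 30844 to 35011 in WT, and no marker of these lists was at 0 on an array. With limma at an adjusted p of 0.05, 7 of 8 T and NK cell, 5 of 8 mast cell and basophil, 2 of 6 plasma cell and 1 of 6 monocyte and macrophage markers rose, and 4 of 7 Lin-Sca1+ markers fell. The mast cell and basophil markers that rose were Ms4a2, Mcpt8, Cpa3, Fcer1a and Hdc, with log2 differences of 5.38, 3.88, 3.65, 2.94 and 2.80. Kit, which is also in the Lin-Sca1+ list, stood at -0.60 with every DKO array below every WT array. Gata2 and Cma1 stood at 0.18 and 0.08 with overlapping groups. Kit and Gata2 carried most of the mast cell and basophil sum in WT. The plasma cell markers that rose were Igha and Jchain, which carried most of the plasma cell sum. Xbp1 and Prdm1 stood at log2 differences of 0.88 and 1.10, with every DKO array above every WT array, but did not pass the threshold. Irf4 stood at a log2 difference of 0.05, and Sdc1 at -0.74 with every DKO array below every WT array. The monocyte marker that rose was Ccr2, at 2.32. Adgre1 stood at 1.41 with every DKO array above every WT array, and Csf1r at 1.09 with overlapping groups. Lyz2 stood at -0.86 with every DKO array below every WT array, and Cd68 and C1qb at -0.82 and -0.80 with overlapping groups. In the erythroid list Tfrc carried most of the sum, at 9368.8, 8041.8 and 9612.8 in DKO and 6694.2, 10847.9 and 3164.4 in WT. Of 4 tested erythroid markers 2 were above 0 and 2 below, and 0 passed the threshold. Alas2 stood at -1.50 with overlapping groups. In the Lin-Sca1+ list, Ptprc had 9452.3, 9282.2 and 11589.5 in DKO and 8482.7, 9434.4 and 8129.8 in WT. It was the largest part of the DKO sum and the 1 marker above 0, at 0.21. Those that fell were Procr, Mecom, Hlf and Meis1, at -1.66, -1.66, -1.33 and -1.33. Ly6a, the gene of Sca1, was not analysed here. Nr4a1 had signals of 8.0, 22.4 and 33.8 in DKO and 1110.5, 1269.4 and 816.3 in WT, and the brightest Nr4a3 probe set was dim in both groups, at 60.9, 59.4 and 21.2 in DKO and 63.7, 44.3 and 50.8 in WT. Ratios of the 3' to the 5' control probe set of Gapdh, a sign of RNA quality, were 4.74 to 9.96 in DKO and 6.47 to 9.69 in WT. The same ratio for the actin control was lower, at 1.242 to 1.494 in DKO and 1.061 to 1.396 in WT. The part of other cells and of RNA quality in the values of the mitochondrial ribosomal genes was not tested.

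Promoter letters are shown for the gene with the smallest p and the gene with the largest difference in each subunit, since these are the genes whose groups stood furthest apart by each measure. Each run is the 250 bases before the annotated start on the strand of the gene, from RefSeq on GRCm38.p6, with capitals for matches to any of 5 motifs searched on both strands. The windows are Mrpl16 at chr19:11770165-11770414 (plus strand), Mrpl12 at chr11:120484387-120484636 (plus), Mrps18b at chr17:35916441-35916690 (minus) and Mrps27 at chr13:99344536-99344785 (plus).
Mrpl16: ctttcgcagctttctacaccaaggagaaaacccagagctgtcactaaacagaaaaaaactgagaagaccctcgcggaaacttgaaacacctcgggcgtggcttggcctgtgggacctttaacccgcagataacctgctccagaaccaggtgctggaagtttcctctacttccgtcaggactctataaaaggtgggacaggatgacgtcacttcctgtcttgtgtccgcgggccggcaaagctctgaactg
Mrpl12: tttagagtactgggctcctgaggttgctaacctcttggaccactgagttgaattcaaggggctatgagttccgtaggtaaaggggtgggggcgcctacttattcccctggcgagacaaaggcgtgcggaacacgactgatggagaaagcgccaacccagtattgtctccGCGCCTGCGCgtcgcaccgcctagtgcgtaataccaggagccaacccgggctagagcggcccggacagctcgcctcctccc
Mrps18b: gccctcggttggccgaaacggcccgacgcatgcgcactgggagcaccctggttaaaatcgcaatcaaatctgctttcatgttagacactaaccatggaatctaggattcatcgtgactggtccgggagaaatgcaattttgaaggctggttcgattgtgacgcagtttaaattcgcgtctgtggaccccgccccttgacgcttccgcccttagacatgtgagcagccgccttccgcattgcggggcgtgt
Mrps27: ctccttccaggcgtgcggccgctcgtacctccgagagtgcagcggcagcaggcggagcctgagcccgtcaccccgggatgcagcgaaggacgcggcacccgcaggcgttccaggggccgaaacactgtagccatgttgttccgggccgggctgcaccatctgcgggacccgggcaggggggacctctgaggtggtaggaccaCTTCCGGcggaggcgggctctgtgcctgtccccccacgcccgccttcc
Capitals mark an NRF1 motif in Mrpl12 and an ETS motif, on the opposite strand, in Mrps27.

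Among large subunit genes, Mrpl12 had the largest difference. Its protein is the counterpart of the bacterial stalk protein L12, which recruits translation factors to the ribosome. Mrpl12 had signals of 326.5, 547.2 and 283.0 in DKO and 134.9, 173.1 and 209.1 in WT. The groups did not overlap, and DKO replicate 2 was the highest. The log2 difference was 1.06 ± 0.38 (SE), with a 95% interval of 0.22 to 1.89 and an adjusted p of 0.227 in limma.

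Mrpl16, the counterpart of bacterial L16 beside the peptidyl transferase centre, had the smallest p of the large subunit. Its signals were 7206.7, 4952.4 and 8473.1 in DKO and 3831.6, 3915.0 and 4840.1 in WT. The lowest DKO array, replicate 2, was close to the highest WT array, replicate 3. The log2 difference was 0.68 ± 0.21 (SE), adjusted p = 0.148 in limma, with an interval of 0.23 to 1.14.

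Mrpl37 and Mrpl38 encode proteins of the large subunit that the bacterial ribosome lacks. Mrpl37 had signals of 323.7, 437.5 and 298.4 in DKO and 240.8, 62.0 and 286.2 in WT, so WT replicate 2 was far below all other arrays. Its log2 difference of 1.00 ± 0.50 (SE, adjusted p = 0.392 in limma) was 0.39 without WT replicate 2. Mrpl38 had signals of 185.9, 348.6 and 114.7 in DKO and 114.0, 111.5 and 81.4 in WT, with the lowest DKO array next to the WT arrays. Its log2 difference of 0.86 ± 0.46 (SE, adjusted p = 0.425 in limma) was 0.47 without DKO replicate 2, and 0.46 when its tested probe sets were averaged.

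Mrpl51 had a small difference with a tight spread. Its signals were 6714.6, 5931.9 and 7308.4 in DKO and 3823.5, 5037.7 and 5178.4 in WT. The groups were apart, and the log2 difference was 0.51 ± 0.17 (SE, adjusted p = 0.193 in limma). The other tested Mrpl51 probe sets stood at 0.20 and -0.81, and the mean over all 3 at -0.03. Mrpl57 had signals of 840.2, 827.0 and 930.1 in DKO and 424.7, 551.7 and 666.7 in WT, again without overlap. The log2 difference of Mrpl57 was 0.67 ± 0.27 (SE, adjusted p = 0.287 in limma), and a dimmer probe set of the gene stood at -0.11.

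The other 5 large subunit genes with every DKO array above every WT array were Mrpl36, Mrpl35, Mrpl40, Mrpl33 and Mrpl18, with log2 differences of 0.63, 0.39, 0.36, 0.27 and 0.25. Mrpl41 had signals of 1590.3, 3276.0 and 2828.4 in DKO and 855.5, 1458.9 and 2196.8 in WT, a log2 difference of 0.80 ± 0.35 (SE, adjusted p = 0.323 in limma). Its groups overlapped, as WT replicate 3 was above DKO replicate 1.

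Large subunit genes without such a separation were the majority, 35 of 46, and 11 had a difference below 0. Mrpl39, one of the pair with the highest signals, had 4642.2, 6120.1 and 7440.9 in DKO and 4237.9, 6209.2 and 8191.6 in WT. Both groups covered the same range, and the log2 difference was -0.01, with an interval of -0.54 to 0.52. Mrpl11, the counterpart of bacterial L11 at the base of the stalk, had 6799.3, 4926.3 and 8041.1 in DKO and 3642.0, 4645.9 and 7057.4 in WT, a log2 difference of 0.39 with overlapping groups, which was 0.17 without WT replicate 1, 0.23 without DKO replicate 3 and 0.65 without WT replicate 3. The dimmest tested gene, Mrpl54, had 67.5, 62.0 and 128.0 in DKO and 75.6, 87.6 and 49.5 in WT, and its interval of -0.81 to 1.21 was among the wide ones. Mrpl20 had the lowest value of the subunit, a log2 difference of -0.47 ± 0.30 (SE), with overlapping groups.

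In the small subunit, Mrps18b had the smallest p of all members. It encodes one of the mammalian relatives of bacterial S18. Its signals were 1474.6, 1417.8 and 1829.6 in DKO and 725.2, 856.4 and 1086.5 in WT. All DKO arrays lay clear of the WT arrays, and the log2 difference was 0.82 ± 0.24 (SE), with an interval of 0.30 to 1.35 and an adjusted p of 0.135 in limma. With an array left out in turn the difference of Mrps18b lay between 0.69 and 0.97.

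Mrps12 encodes the counterpart of S12, a protein of the decoding centre. Mrps12 had signals of 554.3, 844.4 and 480.7 in DKO and 346.5, 268.1 and 332.7 in WT. The groups were apart, with DKO replicate 2 the highest. The log2 difference was 0.92 ± 0.32 (SE, adjusted p = 0.211 in limma).

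Mrps17, the counterpart of S17, had signals of 1363.2, 1397.7 and 1383.9 in DKO and 756.0, 670.3 and 1118.0 in WT. The DKO arrays were nearly alike, and WT replicate 3 was the closest to them. The log2 difference was 0.73 ± 0.25 (SE, adjusted p = 0.207 in limma). Mrps22, chosen after its values were seen, is a mitochondria-specific protein whose loss impairs mitochondrial translation in human patients. It had 1384.9, 1433.8 and 1612.5 in DKO and 1007.4, 682.6 and 1053.8 in WT, a log2 difference of 0.70 ± 0.24 (SE, adjusted p = 0.208 in limma).

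Every DKO array also lay above every WT array in Mrps23, Mrps15 and Mrps14, with log2 differences of 0.58, 0.30 and 0.28.

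Mrps27, a pentatricopeptide repeat protein of the small subunit, had the largest difference there. Its signals were 311.3, 363.1 and 254.6 in DKO and 145.6, 85.7 and 238.9 in WT. The gap between the groups was narrow, between DKO replicate 3 and WT replicate 3. The log2 difference was 1.00 ± 0.42 (SE, adjusted p = 0.307 in limma).

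Mrps5, the counterpart of S5, went the other way. Its signals were 782.0, 849.4 and 539.0 in DKO and 902.9, 962.0 and 1412.5 in WT, without overlap. The log2 difference was -0.58 ± 0.28 (SE, adjusted p = 0.377 in limma), and -0.39 without DKO replicate 3 or -0.38 without WT replicate 3. Of its 5 tested probe sets, 3 were below 0 and 2 above, from -0.66 to 0.49, and their mean gave -0.19. Other members with high or low signals did not separate the groups. Mrps18c had 5679.0, 6988.1 and 8092.8 in DKO and 4703.4, 4908.8 and 7489.5 in WT, and Mrps33 had 2868.4, 2549.2 and 3928.9 in DKO and 2681.1, 1780.3 and 3674.2 in WT. The dim Mrps11 had 104.7, 140.0 and 122.7 in DKO and 171.3, 198.6 and 126.7 in WT, a log2 difference of -0.38 ± 0.40 (SE).

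**Figure D4:**
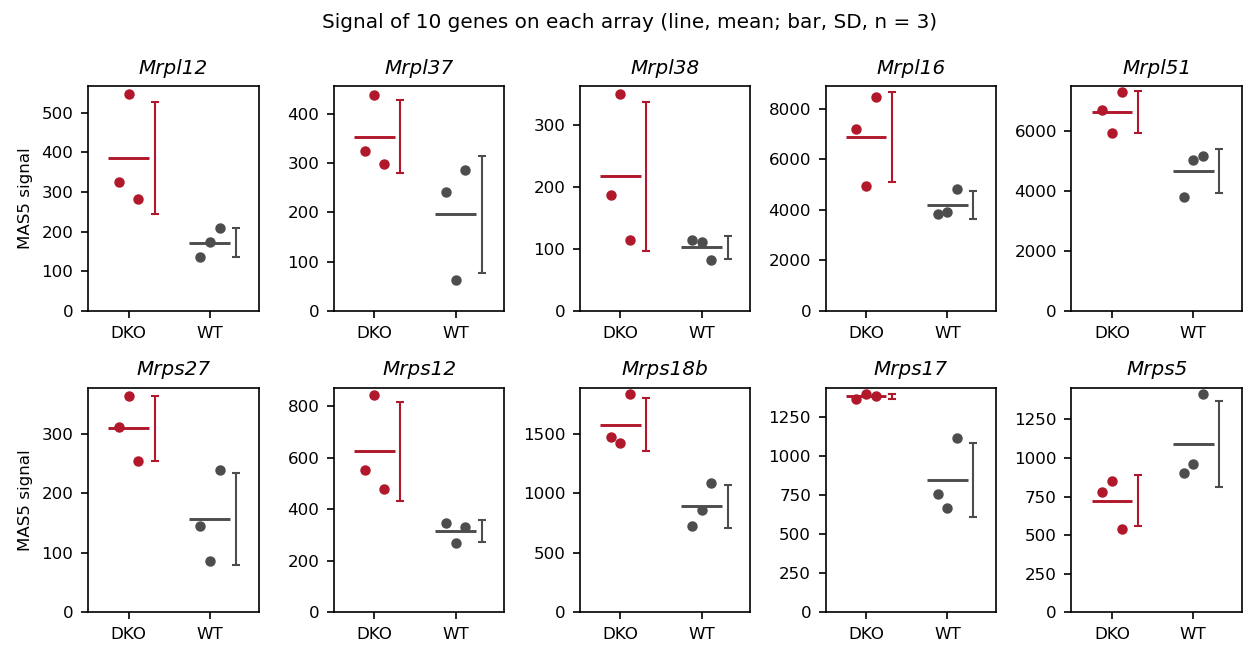
MAS5 signal of 10 genes on each array, linear axes from 0, DKO left and WT right; points are arrays, lines are means and bars SD (n = 3). In 9 genes all DKO points lie above all WT points, and in Mrps5 all lie below.

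Probe sets of 1 gene did not always point the same way. Of 34 genes with several tested probe sets, 16 had the same sign in all and 18 did not, and 21 of 65 dimmer probe sets had the sign opposite to the brightest one. Mrpl15 had 8 tested probe sets, from -0.05 to 1.72, with 0.43 at the brightest, which was 0.045 without WT replicate 2. The value of 1.72 came from a dim probe set, at 176.3, 190.1 and 101.9 in DKO and 98.9, 1.1 and 50.9 in WT. Its WT mean of 50.3 lay below the filter limit of about 53.2, so it passed through its DKO signals. In Mrpl35 the tested probe sets ran from -0.66 to 0.86, in Mrpl9 from -0.16 to 0.69, in Mrpl52 from -0.22 to 0.92 and in Mrps14 from -0.35 to 0.28. The lower value lay within about its standard error of 0 in Mrpl9, Mrpl52 and Mrps14, and was -0.66 ± 0.39 (SE) in Mrpl35. In Mrpl11 they ran from -0.06 to 0.43, in Mrpl28 from -0.03 to 0.44, in Mrpl3 from -0.02 to 0.38, in Mrpl34 from -0.00078 to 0.33, in Mrpl48 from -0.05 to 0.32 and in Mrpl49 from -0.08 to 0.10. In Mrpl58, a peptidyl-tRNA hydrolase built into the large subunit, they ran from -0.82 to 0.11, in Mrps9 from -0.15 to 0.41, in Mrps11 from -0.38 to 0.03 and in Mrps25 from -0.24 to 0.15. Mrpl51, Mrpl57 and Mrps5 complete the 18. Of the 65 dimmer probe sets, 8 were higher in DKO at an unadjusted p under 0.05, as were 6.04% of all probe sets tested. In limma 0 of all 140 member probe sets passed an adjusted p of 0.05, which 1.37% of all probe sets did. One of these 8 belongs to Mrpl19, at 685.6, 887.3 and 1868.3 in DKO and 402.7, 383.6 and 592.9 in WT. Another is the dim Mrpl15 probe set at 1.72. A dimmer Mrpl17 probe set stood at -0.85 ± 0.39 (SE, unadjusted p = 0.052 in limma), with every DKO array below every WT array. The brightest Mrpl17 probe set stood at -0.13 with overlapping groups.

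Proteins with and without a bacterial counterpart were set apart. In the large subunit the median log2 difference was 0.32 over 18 genes without a counterpart and 0.17 over 28 genes with one. In the small subunit it was 0.33 over 11 genes without and 0.29 over 18 genes with one. Differences above 0 were found in 16 of 18 and 11 of 11 genes without a counterpart, and in 19 of 28 and 13 of 18 genes with one. The difference between these classes was not tested. Mrps30 and Mrps18a, although named for the small subunit, sit in the large subunit by structure, and Mrps36 is now held to belong to a metabolic enzyme complex. With these placed by structure the medians were 0.25 in the large and 0.30 in the small subunit. The classes with and without a counterpart follow the gene names. Mrps30 and Mrps36 were thus among the 11 small subunit genes without a counterpart, and Mrps18a among the 18 with one.

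Proteins of the mitochondrial ribosome under other symbols gave mixed values. Dap3, a protein of the small subunit, had 2207.8, 2343.1 and 2261.4 in DKO and 1687.3, 1648.5 and 2065.1 in WT, and Gadd45gip1, of the large subunit, had 176.2, 183.9 and 198.4 in DKO and 131.2, 106.0 and 99.6 in WT. Both were without overlap, but neither passed the threshold (adjusted p = 0.457 and 0.463 in limma). Ptcd3 and Chchd1 had overlapping groups, with log2 differences of -0.00 and -0.10.

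Around the ribosome, the other lists of mitochondrial gene expression had medians nearer to 0 than the subunits. Like both subunits, they held 0 genes past the threshold. Medians were 0.14 over 11 translation factors, 0.22 over 25 ribosome assembly factors, 0.15 over 18 tRNA synthetases and 0.11 over 23 genes of transcription and RNA handling. In the same order 9, 14, 11 and 15 genes lay above 0, beside 35 of 46 large and 24 of 29 small subunit genes. The difference between these lists and the subunits was not tested. At an unadjusted p under 0.05 in limma these lists held 1, 0, 2 and 2 genes higher and 0, 1, 1 and 1 lower. By that rule 7.61% of all genes were higher and 8.65% lower. Gfm1, the elongation factor that moves the ribosome along its message, had 1916.2, 1554.7 and 1816.6 in DKO and 951.3, 954.0 and 1337.4 in WT (log2 0.71 ± 0.23 SE, adjusted p = 0.171 in limma). Mtrf1l, a release factor, stood at -0.46 with overlapping groups.

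Lrpprc, which stabilises mitochondrial messages, had 2001.6, 2065.9 and 2204.0 in DKO and 1164.6, 1352.8 and 1500.8 in WT (log2 0.64 ± 0.20 SE, adjusted p = 0.164 in limma). Polg2, the accessory subunit of the mitochondrial DNA polymerase, went the other way, at 520.0, 430.2 and 508.2 in DKO and 846.3, 1052.2 and 766.6 in WT (-0.84 ± 0.27 SE, adjusted p = 0.164 in limma). Members of 1 list thus lay on both sides of 0. The glutamyl-tRNA synthetase Ears2 was lower, at 162.6, 149.7 and 390.5 in DKO and 539.2, 427.1 and 504.5 in WT, while the isoleucyl-tRNA synthetase Iars2 was higher, at 1295.2, 1356.3 and 1474.6 in DKO and 946.9, 721.7 and 1125.5 in WT. Among assembly factors the ribosomal RNA methyltransferases Mettl15 and Nsun4 were below 0, at -1.20 ± 0.42 and -0.76 ± 0.36 (SE), and the groups did not overlap in either.

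**Figure D5:**
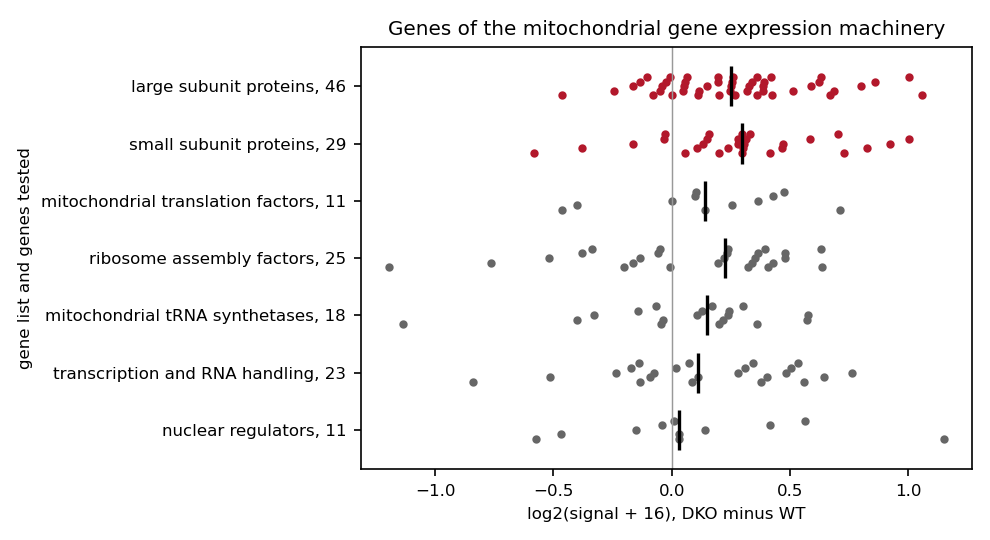
Log2 difference between DKO and WT of each tested gene in 7 lists of the mitochondrial gene expression machinery; points are genes, spread vertically to be seen, and black bars are medians. The 2 ribosomal lists have medians of 0.25 and 0.30 and the nuclear regulators one of 0.03. Among the ribosome assembly factors Rcc1l is drawn at 2 points, under its own symbol and as Wbscr16. The bar of that row includes both points, while its label counts the gene once.

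Of the gene sets most like these, the oxidative phosphorylation genes had a median of 0.24 over 88 genes, close to that of the large subunit. Of these genes 65 (73.9%) lay above 0 and 12 (13.6%) were higher at an unadjusted p under 0.05, beside 78.7% and 14.7% of the mitochondrial ribosomal genes. Every DKO array lay above every WT array in 9 of the 88 (10.2%), beside 25.3% of the mitochondrial ribosomal and 10.7% of all genes. The oxidative phosphorylation set had mean levels of -0.01, 0.05 and 0.27 in DKO and -0.29, -0.12 and 0.10 in WT, so the groups overlapped. Cytosolic ribosomal proteins had a median of -0.11 over 40 genes, with 12 (30%) above 0. At an unadjusted p under 0.05, 2 were higher and 3 lower, beside 7.61% and 8.65% of all genes. Of the 40 genes 1 lay wholly above and 5 wholly below, beside 10.7% and 11.3% of all genes. Mean levels of this set were -0.22, -0.04 and 0.17 in DKO and -0.03, -0.05 and 0.16 in WT. The difference between these sets and the mitochondrial ribosomal proteins was not tested.

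The motifs searched were GCGC followed by any base and TGCGC for NRF1, CCGGAAG for ETS factors such as GABPA, AAGATGGC for YY1, CACGTG for the E-box bound by MYC, and AAAGGTCA for the NBRE that NR4A receptors bind. NRF1, GABPA and YY1 are known regulators of nuclear genes for mitochondria. The search covered 250 bases before to 50 after the start in the 67 of 76 genes that matched the table. Over this longer window, beyond the bases printed, Mrps18b also held an ETS match and Mrps27 a YY1 match. No overlap between motif matches was removed. The ETS motif was found in 25 genes, 37.3% of the members, against 20.1% of the 9370 genes both tested on the arrays and in the table, and 8.86% of all windows. The NRF1 motif was in 12 members (17.9%, against 11.7% of tested genes and 4.60% of windows), the YY1 motif in 12 (17.9%, against 5.44% and 2.75%) and the E-box in 5 (7.46%, against 11.8% and 7.15%). The NBRE letters were in 0 of the 67, against 1.09% of tested genes and 1.51% of windows. The median log2 difference was 0.27 in 25 genes with the ETS motif and 0.26 in 41 without, 0.31 in 11 with the NRF1 motif and 0.26 in 55 without, 0.29 in 12 with the YY1 motif and 0.26 in 54 without, and 0.36 in 5 with the E-box and 0.25 in 61 without. These differences between medians were not tested. A match is a description of these letters and not a bound site.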

How the data were processed

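RNA of 6 pools, 3 DKO and 3 WT, was measured on Affymetrix mouse arrays. The deposited values are linear intensities, 1 for each probe set on each array. MAS5 is named in the submitters' processing notes, with no version. In the deposited values the trimmed mean, with 2% left out at each end, was 500.0 on every array, and the authors' scaling was kept. The number of arrays limits the precision. Symbols came from the platform annotation, and all 156 member probe sets matched RefSeq (GRCm38.p6) by gene identifier, with 0 symbols changed. Of 45037 probe sets, 34945 had 1 symbol, 932 several and 9160 none. After 64 control probe sets were left out, signals became log2(signal + 16), which understates changes of dim genes. The lowest 40% of probe sets by mean, below a signal of about 53.2, were left out. For the other 27022, limma 3.58.1 (R 4.3.3) compared DKO with WT two-sided, with eBayes moderation that follows intensity and no block. Each gene is its brightest probe set. Figures used matplotlib 3.10.9.

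Named are, in each subunit, up to 4 genes highest and 4 lowest in difference without overlap, the 2 brightest, the 2 dimmest and those whose probe sets differ in sign, and in other lists up to 4 genes past the threshold or else the 2 with the smallest p. Members and lists were chosen with earlier results of these data known. Other members and list genes named were chosen after their values were seen. The alternatives were leaving out each array, a replicate block, offsets of 1 and 64, quantile normalization or median centring, a 60% filter or none, averaging the probe sets of a gene, array quality weights, moderation without the trend, an adjusted p threshold of 0.10 and subunits by structure.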

Additional observations from a re-analysis of the deposited data

How the results depend on the processing

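In every alternative run, 0 genes of either subunit passed an adjusted p of 0.05 in limma, and 0 passed 0.10 with the other choices kept; both medians stayed above 0. At an unadjusted p under 0.05, between 6 and 18 members were higher, and 1 was lower without DKO replicate 2; with 1 probe set per gene, 5.89% to 9.56% of all genes were higher by that rule in the same alternatives. The median lay between 0.16 and 0.36 in the large and between 0.17 and 0.43 in the small subunit. Median centring shifted the log2 differences of all probe sets up by 0.11 and gave subunit medians of 0.36 and 0.40. Relative to the median of all genes they were 0.26 and 0.30 with the authors' scaling, 0.26 and 0.30 with median centring and 0.20 and 0.29 with quantile normalization. The smallest adjusted p of a member in limma was 0.0707, for Mrps18b with the probe sets of a gene averaged, and the next was 0.0825, for Mrpl16 with a replicate block. The block left both counts at 0 and the medians at 0.25 and 0.30, and 12 members were then higher at an unadjusted p under 0.05. Same-numbered pools correlated at 0.14, -0.03 and 0.05 in their deviations across probe sets, and pools of unlike number at -0.13 to 0.06. With 3 arrays per group these values cannot decide whether the numbers pair the pools. With an array left out in turn the medians lay between 0.16 and 0.32 in the large and between 0.17 and 0.43 in the small subunit, and the counts stayed at 0. Without an intensity trend, 9 members were higher at an unadjusted p under 0.05.

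Of 30 named genes, 11 had a log2 difference whose sign turned in some alternative; none of these genes had passed. With quantile normalization these were Mrpl28 (0.076) and Mrpl34 (0.12). Median centring adds the same amount to every gene, so it turned the sign of named genes just below 0: Mrpl39 (0.10), Mrpl28 (0.082), Mrpl34 (0.11) and Mrpl49 (0.028). With array quality weights they were Mrpl28 (0.014) and Mrpl34 (0.11). With the probe sets of a gene averaged they were Mrpl28 (0.15), Mrpl34 (0.17), Mrpl49 (0.0085), Mrpl51 (-0.031), Mrpl58 (-0.35) and Mrps14 (-0.060). With an array left out in turn, the ranges that crossed 0 were those of Mrpl28 (-0.23 to 0.10), Mrpl34 (-0.21 to 0.22), Mrpl39 (-0.26 to 0.22), Mrpl49 (-0.33 to 0.12), Mrpl54 (-0.081 to 0.36), Mrpl58 (-0.17 to 0.36), Mrpl9 (-0.020 to 0.22), Mrps25 (-0.11 to 0.38) and Mrps33 (-0.035 to 0.48). Other named genes whose difference moved by over 1.5 times when an array was left out were Mrpl3, Mrpl48, Mrpl52, Mrps9, Mrps11, Mrps14 and Mrps18c. Apart from median centring, the cause was not tested.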

Other observations

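Nuclear regulators of genes for mitochondria pointed both ways. Of 11 tested, 2 were higher and 2 lower at an unadjusted p under 0.05, beside 7.61% and 8.65% of all genes. In limma 0 passed the adjusted threshold. Ppargc1b, a coactivator of mitochondrial biogenesis, had signals of 488.9, 423.5 and 573.1 in DKO and 318.6, 234.2 and 126.6 in WT (log2 1.15 ± 0.38 SE, adjusted p = 0.183 in limma). Myc had 2706.4, 2621.5 and 2797.1 in DKO and 1942.1, 1401.0 and 2242.3 in WT (0.56 ± 0.21 SE, adjusted p = 0.249 in limma), while its relative Mycn had 2247.2, 2815.4 and 1613.5 in DKO and 3218.2, 2962.2 and 3563.0 in WT (-0.57 ± 0.22 SE, adjusted p = 0.260 in limma). Gabpb1, a subunit of the ETS factor complex, had 1577.6, 1765.1 and 1390.9 in DKO and 2029.9, 1939.1 and 2621.9 in WT. In all 4 the groups did not overlap, 2 above and 2 below. Among all genes tested, 10.7% lay wholly above and 11.3% wholly below.

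Probe sets shared by a member's symbol and another gene were not among the members. The brighter one of Gm6238 and Mrpl30 had 2562.5, 2566.9 and 3212.0 in DKO and 2042.1, 2513.0 and 1859.5 in WT. Those shared by Ccdc142 and Mrpl53 and by Nme3 and Mrps34 were lower in every DKO array, at 209.4 to 243.9 in DKO and 252.2 to 332.3 in WT for the first, and at 23.4 to 117.2 in DKO and 120.1 to 186.3 in WT for the second. The probe set with the symbol Mrps34 alone had 288.6, 194.3 and 337.3 in DKO and 294.7, 226.8 and 251.0 in WT. Mrpl50 was the 1 tested member within 10 Mb of a targeted locus, that of Nr4a3. It had 1189.0, 1215.5 and 1157.5 in DKO and 937.0, 706.4 and 1273.0 in WT.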
